A study of Mus musculus with 2 samples.

Results

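*C1s1*, *C1ra*, *C4b*, *C3*, *Cfb* and *Serping1*, 6 of the 27998 genes in the deposited gene table, were followed through the Tomato+ stroma of healing mouse skin wounds. The genes were read from the gene table by symbol, and all 6 symbols were found. They were chosen with earlier results of these data known. They code for complement proteins and for 1 complement inhibitor, and their UMIs (molecules counted by their molecular identifier) were read by lineage and, in fibroblasts, by whether the cell also held UMIs of *Ptch1*, a receptor gene that is switched on when Hedgehog (Hh) signaling is active.

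The study asked whether Hh activation in wound dermal cells turns fibroblasts toward the dermal papilla, the signaling center of the hair follicle. Both groups carried *SM22rtTA* and *tetO-Cre*, so that the SM22 (*Tagln*) promoter, which is active in smooth muscle, pericytes and wound myofibroblasts, drove Cre while doxycycline was given (20 g/kg, from post-wound day 1 on). Control mice carried *R26-Tomato*, a red reporter, and *SM22-SmoM2* mice carried *R26-SmoM2/Tomato*, which adds SmoM2, a constantly active form of the Hh transducer Smoothened. Mice were 4–5 weeks old, wounds were harvested 3 days after reepithelialization was complete, and the dermis was lifted off in 20 mM EDTA before Tomato+ cells were sorted. Each group is 1 library from wounds of several pooled mice, so there is no replicate, no test was possible, and all intervals below are 95% intervals that cover counting error only. Genotype, mouse and sex of the mice cannot be told apart, and fewer transcripts per cell cannot be told apart from fewer cells that hold them wherever UMIs are summed over cells.

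The control library held 2878 barcodes with 30208318 UMIs and the *SM22-SmoM2* library 1802 barcodes with 17863317 UMIs. After removal of 22 and 10 barcodes, median depths were 8607.5 and 8837.5 UMIs per cell. Clusters were named from their markers as fibroblasts (1097 control and 1100 *SM22-SmoM2* cells), muscle and pericyte cells (274 and 94), endothelial cells (612 and 222), Schwann cells (678 and 294) and immune cells (81 and 32), with few keratinocytes (16 and 1). A cluster of 90 and 48 cells that mixed markers of vessel wall and endothelium was kept apart. A further 8 and 1 cells were left out of the fibroblasts as mixed. Their leading genes held the vessel-wall markers *Higd1b* and *Rgs5* and the immune marker *Lyz2*. Levels are given as CPM, the UMIs of a gene per 1000000 UMIs of the cells summed. Control fibroblasts held *Pdgfra* at 78.2 and *Col1a1* at 23181 CPM against 2.66 and 1790 CPM in control muscle cells, and the defining markers of the other lineages were near 0 in them (*Ptprc* 0.352, *Sox10* 0.704 and *Myh11* 0.774 CPM). Control fibroblasts held 172 *Ptch1* UMIs (12.1 CPM), and *SM22-SmoM2* fibroblasts 1835 (147 CPM). Of fibroblasts whose *Xist* and Y-linked UMIs gave a sex, 25.6% of control and 5.55% of *SM22-SmoM2* cells were female. Because the barcode list covers all 737280 barcodes of the kit and is not matched to the columns, barcodes shared by both libraries could not be counted.

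Complement is a cascade of secreted proteins that tags microbes, immune complexes and dying cells. In the classical pathway the recognition protein C1q activates the proteases C1r and C1s, which cleave C4 and C2 into the enzyme that splits C3. The alternative pathway amplifies that step with factor B, and the C1 inhibitor, made from *Serping1*, holds the C1 proteases in check. Liver supplies most complement in plasma, but fibroblasts, macrophages and other cells of skin make components locally, and interferons and acute-phase cytokines are known to induce several of them.

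On GRCm38, all 6 are protein-coding genes. *C3* lies at chr17:57203970-57228136, *C4b* at chr17:34728380-34743882 and *Cfb* at chr17:34856374-34862518, each on the minus strand. *Serping1* lies at chr2:84765387-84775444 and *C1s1* at chr6:124530345-124542359 on the minus strand, next to *C1ra* at chr6:124512405-124523443 on the plus strand. Counts of near copies are uncertain. *C4b* has the near-identical copy *C4a*, which is not analysed here, while the paralogs *C1rb* and *C1s2* held 12 and 6 UMIs in control fibroblasts and 6 and 1 UMIs in *SM22-SmoM2* fibroblasts. *Cfb* overlaps *Gm20547* on the same strand, which held 0 UMIs in fibroblasts of either library, and the antisense gene *Gm16567* over *C1s1* held 1 UMI in each.

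RefSeq promoter windows on GRCm38.p6 were given for 3 of the 6 genes. The 250 bases upstream of the RefSeq start are printed here for *C3*, the gene with the lowest ratio between the libraries, and for the neighbors *C1s1* and *C1ra*, which had similar ratios. They are chr17:57228137-57228386 (minus strand) for *C3*, chr6:124542360-124542609 (minus strand, the first of 2 starts) for *C1s1* and chr6:124512371-124512620 (plus strand) for *C1ra*. For *C1ra* the RefSeq start lies inside the gene as GENCODE annotates it, so that 216 of the 250 bases fall within the coordinates given above. Capitals mark matches to TTNNGNAA on either strand, the letters of a C/EBP site; C/EBP proteins are transcription factors of the acute-phase response.
C3: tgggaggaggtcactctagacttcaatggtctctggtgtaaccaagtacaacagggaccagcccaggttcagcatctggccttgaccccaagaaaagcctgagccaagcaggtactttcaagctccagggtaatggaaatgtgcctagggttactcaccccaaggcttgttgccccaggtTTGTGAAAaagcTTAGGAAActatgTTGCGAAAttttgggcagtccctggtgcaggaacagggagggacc
C1s1: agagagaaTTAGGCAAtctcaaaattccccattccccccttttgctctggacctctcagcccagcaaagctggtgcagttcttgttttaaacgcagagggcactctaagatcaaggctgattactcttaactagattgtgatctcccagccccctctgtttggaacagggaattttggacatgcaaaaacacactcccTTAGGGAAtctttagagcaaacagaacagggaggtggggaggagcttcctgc
C1ra: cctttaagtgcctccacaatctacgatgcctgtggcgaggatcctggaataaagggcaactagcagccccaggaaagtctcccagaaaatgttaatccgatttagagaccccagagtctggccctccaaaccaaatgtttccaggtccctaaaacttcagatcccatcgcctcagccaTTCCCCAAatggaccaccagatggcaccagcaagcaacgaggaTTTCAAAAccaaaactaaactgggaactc
The *C3* window held 3 matches, starting 70, 58 and 45 bases before the start, and the *C1s1* and *C1ra* windows held 2 each. Such a match is common, since 36.8% of the 32851 RefSeq windows of this length hold at least 1. No match was found in the 3 windows for the GLI letters TGGGTGGTC (0.225% of all windows), the STAT letters TTCNNNGAA (7.02%), the interferon-stimulated response element (2.98%), TATAAA (12.4%) or the NF-kB motif (7.25%). These are matches of letters and not binding sites.

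Fibroblasts were the main holders of the C1 proteases. They held 70.1% of *C1s1* UMIs and 83.0% of *C1ra* UMIs in the control library, where they held 47.2% of all UMIs, and 83.8% and 87.7% in the *SM22-SmoM2* library, where they held 70.2% of all UMIs. In control cells, *C1s1* stood at 176 CPM in fibroblasts (2497 UMIs) and at 382 CPM in muscle and pericyte cells (719 UMIs). Endothelial cells had *C1s1* at 8.63, Schwann cells at 9.55 and immune cells at 49.6 CPM. *C1s1* was thus highest in the vessel-wall cells, with fibroblasts next, and the intervals of endothelial and Schwann cells overlapped. *C1ra* stood at 123 CPM in control fibroblasts (1745 UMIs) and at 102 CPM in muscle and pericyte cells (192 UMIs), with 19.0 in immune, 7.64 in Schwann and 6.55 in endothelial cells. After every cell was thinned to 1500 UMIs, *C1s1* was found in 22.2% and *C1ra* in 15.5% of control fibroblasts, against 0.654% and 1.80% of endothelial cells. Before thinning, the shares were 76.7% and 64.1% in fibroblasts at a median of 12471 UMIs per cell and 6.37% and 6.70% in endothelial cells at a median of 8748.5 UMIs per cell.

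*C4b*, which codes for the C4 protein of the classical pathway, had another distribution. In the control library Schwann cells were highest at 56.9 CPM (268 UMIs), followed by fibroblasts at 28.1 (400 UMIs), muscle and pericyte cells at 11.7, immune cells at 8.75 and endothelial cells at 2.53 CPM. Within the Schwann lineage, 205 of the 268 UMIs lay in 1 cluster led by *Fabp7* and *Gfra3*, where *C4b* reached 126 CPM. The *SM22-SmoM2* cells of that cluster had 101 CPM. Fibroblasts held 54.6% of control *C4b* UMIs and 45.4% of *SM22-SmoM2* *C4b* UMIs.

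*C3*, the central component on which the pathways meet, was rare, and in the control library it lay mainly in fibroblasts. There fibroblasts held 84 of its UMIs (5.91 CPM), immune cells 6 (8.75 CPM), endothelial cells 4, Schwann cells 1 and muscle and pericyte cells 0. The fibroblast share was 88.4%, beside 47.2% of all UMIs. In the *SM22-SmoM2* library, fibroblasts held 9 *C3* UMIs (0.720 CPM) and immune cells 4 (11.04 CPM). Here the fibroblast share was 60.0% of 15 UMIs, beside 70.2% of all UMIs. Cells with a *C3* UMI made up 3.19% of control fibroblasts and 0.727% of *SM22-SmoM2* fibroblasts (median 10947.5 UMIs per cell). The share was 0.654% in control endothelial cells, close to that of *SM22-SmoM2* fibroblasts, and the share that free RNA gives was not measured.

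*Cfb*, which codes for factor B, was not a fibroblast gene in particular. Its level in control cells was 23.3 CPM in immune cells (16 UMIs), 11.3 in endothelial cells (76 UMIs), 6.68 in fibroblasts (95 UMIs), 1.70 in Schwann cells and 1.06 in muscle and pericyte cells. *Serping1*, the C1 inhibitor gene, had UMIs in 83.1% of fibroblasts, 97.4% of muscle and pericyte cells and 17.5% of endothelial cells of the control library. Its level was 1062 CPM in control muscle and pericyte cells (1998 UMIs), 399.8 in fibroblasts (5682 UMIs), 100.6 in immune, 42.9 in Schwann and 34.8 in endothelial cells. In that order, the intervals of Schwann cells (37.2 to 49.2) and endothelial cells (30.5 to 39.6) overlapped, and the others did not.

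**Figure D1:**
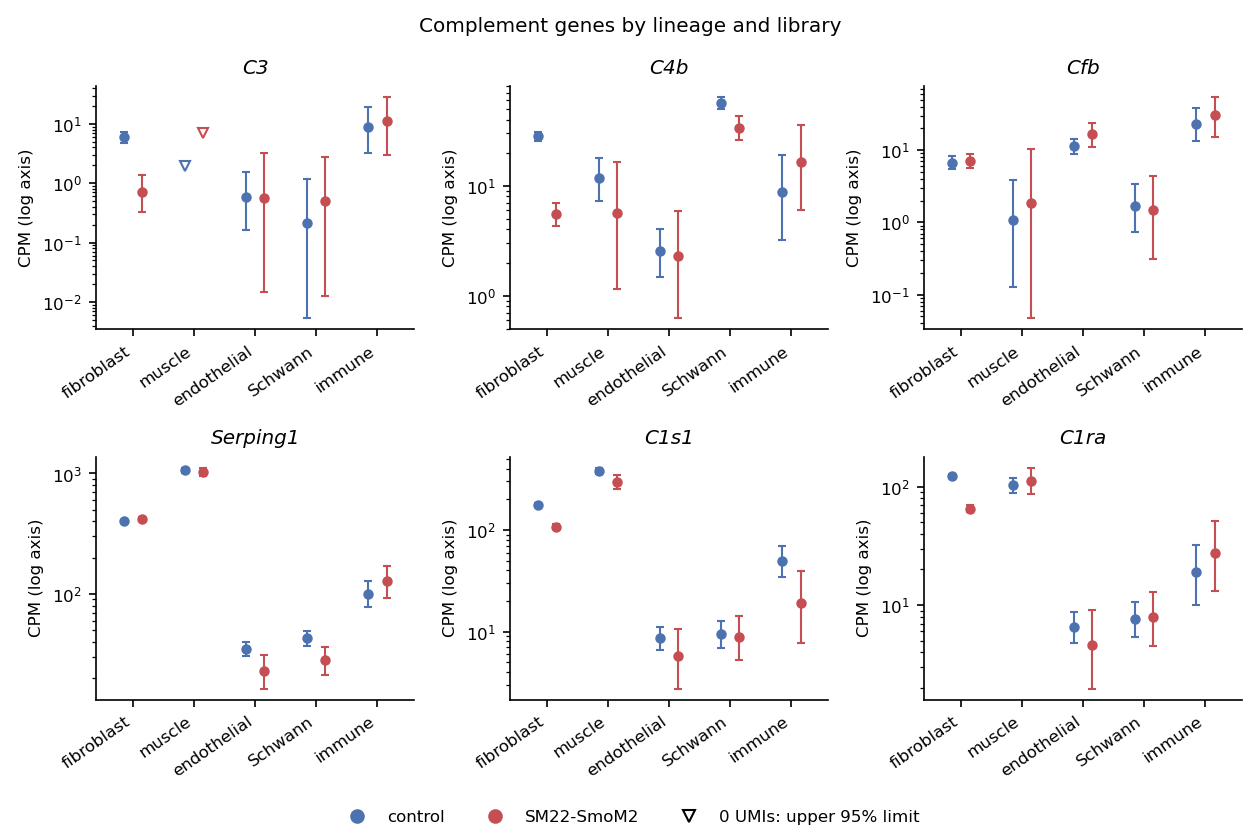
Level of each gene (CPM UMIs of those cells, log axis) in 5 lineages of the control and *SM22-SmoM2* libraries; points are sums over cells, bars 95% counting intervals, and open triangles upper limits where no UMI was found. *Serping1* and *C1s1* are highest in muscle and pericyte cells, *C4b* in Schwann cells of the control library (56.9) and *Cfb* in immune cells; *C3* and *C4b* are the genes whose fibroblast levels lie far apart between libraries (5.91 against 0.720, and 28.1 against 5.52).

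In fibroblasts, *C3* and *C4b* were lower in the *SM22-SmoM2* library than in the control library, and the C1 proteases were lower to a smaller extent. *C3* had 84 UMIs in control and 9 UMIs in *SM22-SmoM2* fibroblasts, 8.21-fold lower (log2 ratio −3.04, interval −4.21 to −2.04). *C4b* had 400 and 69 UMIs, 28.1 and 5.52 CPM, 5.10-fold lower (−2.35, −2.74 to −1.98). Only 0.373% and 0.737% of genes compared had lower ratios than *C3* and *C4b*. *C1s1* had 176 CPM in control and 108 in *SM22-SmoM2* fibroblasts (log2 ratio −0.71, −0.80 to −0.61), and *C1ra* 123 and 64.8 (−0.92, −1.04 to −0.80). Both proteases were lower by less than 2-fold. *Cfb* was at 6.68 and 7.12 CPM (95 and 89 UMIs), a log2 ratio of 0.09 whose interval (−0.34 to 0.52) spans 0. *Serping1* was at 399.8 and 422 CPM, a log2 ratio of 0.08 (0.02 to 0.13). Thus the inhibitor and factor B stood close to their control level in the sum over fibroblasts.

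Of the 6 genes, all with at least 50 UMIs over both libraries, 2 were at least 2-fold lower and 0 at least 2-fold higher, with a median log2 ratio of −0.81. Of all 11539 genes with 50 UMIs in fibroblasts, 4.99% were at least 2-fold lower and 4.96% at least 2-fold higher, with a median of −0.07.

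Outside fibroblasts, 0 of the genes with 50 UMIs in a lineage differed 2-fold between the libraries. This count says little about *C3* and *C4b*. *C3* had too few UMIs in every other lineage, and *C4b* had at least 50 only in Schwann cells. In muscle and pericyte cells *C4b* was at 11.7 CPM in control and 5.61 in *SM22-SmoM2* cells (22 and 3 UMIs) and was not counted. In muscle and pericyte cells 3 of the 6 genes had 50 UMIs, and 0 were 2-fold different (background 0.907% higher and 3.27% lower, median of all genes −0.11). *Serping1* was at 1062 and 1031 CPM in control and *SM22-SmoM2* cells, and *C1ra* at 102 and 112, while *C1s1* was at 382 and 296 (log2 ratio −0.37, −0.63 to −0.12). In endothelial cells 0 of 4 genes were 2-fold different (background 0.676% higher and 2.37% lower, median −0.10), with *Serping1* at 34.8 and 23.0 CPM (−0.60, −1.12 to −0.11) and *Cfb* at 11.3 and 16.7 (0.56, −0.11 to 1.19). In Schwann cells 0 of 4 genes were 2-fold different (background 1.17% higher and 1.85% lower). *C4b* there was at 56.9 and 33.7 CPM (−0.76, −1.16 to −0.37) and *Serping1* at 42.9 and 28.2 (−0.60, −1.05 to −0.17). Beside these, 11 of 27 interferon-induced genes were at least 2-fold lower in *SM22-SmoM2* Schwann cells, with a median log2 ratio of −0.85, against a median of −0.08 over all 8606 genes compared there.

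Most of the control fibroblasts' *C3* came from few cells. Fibroblasts were divided into 15 sub-clusters with all genes of the complement list left out of the clustering, and 1 of them, sub-cluster 12, held 50 control cells (4.56% of control fibroblasts) and 1 *SM22-SmoM2* cell. It was singled out because it held the most *C3* UMIs. Its 50 control cells held 71 of the 84 *C3* UMIs and 259 of the 400 *C4b* UMIs. *C3* stood there at 168 CPM (131 to 212) against 0.943 in the other 1047 control fibroblasts, and *C4b* at 613 against 10.2. *C3* was found in 23 of the 50 cells (46.0%), but 3 cells held 50% of its UMIs there, with 21 UMIs in 1 cell. *C4b* was spread more widely, with UMIs in 39 cells (78.0%) and at most 20 in a cell. Among cells thinned to 5000 UMIs, *C4b* was present in 30 of 41 cells of the sub-cluster and in 41 of 995 other control fibroblasts, and *C3* in 11 of 41 and in 4 of 995.

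The other genes were high in sub-cluster 12 as well. *Serping1* was at 3165 CPM with UMIs in all 50 cells, against 315 in the other control fibroblasts. *C1s1* was at 497 against 166, *C1ra* at 379 against 115 and *Cfb* at 49.7 (21 UMIs) against 5.37 CPM. The 5 genes beside *C3*, whose UMIs picked the sub-cluster, were thus all at least 2-fold higher there, while of all 10275 genes with 50 UMIs 6.60% were at least 2-fold higher and 14.9% at least 2-fold lower, with a median of −0.16. Since sub-clusters are drawn from the same cells, this is a description of where the UMIs lie.

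The genes that led sub-cluster 12 included *Saa3*, *C3*, *Mlana*, *C4b*, *Gdf10*, *AW112010*, *Apoe*, *Cxcl14* and *Vtn*. *Saa3*, an acute-phase gene, had 86 UMIs there and 3 in the other control fibroblasts. Other complement genes were high with the members. *C2* was at 461 against 88.9 CPM and *Vtn*, the gene for vitronectin, which blocks the membrane attack complex, at 125 against 7.76. Of 10 other complement genes with 50 UMIs, 4 were at least 2-fold higher, namely *C2*, *Vtn* and the C1q genes *C1qa* (19 UMIs there and 35 in the other cells) and *C1qb* (13 and 45), which were highest in immune cells. So were 16 of 27 interferon-induced genes (median log2 ratio 1.13). The acute-phase and NF-kB list was mixed, with 7 of 17 genes higher and 5 lower (median 0.29). Of 12 dissociation-stress genes 0 were higher and 3 lower (median −0.84).

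The cells kept a fibroblast profile, with *Dcn* at 15087 against 7287, *Pdgfra* at 125 against 76.7 and *Postn* at 1628 against 4242 CPM. Markers of vessel-wall cells also moved with them. Of these, 4 of 6 muscle and pericyte markers with 50 UMIs were at least 2-fold higher, and the 8 markers summed to 374 CPM in the sub-cluster, 66.7 in other control fibroblasts and 10844 in the muscle lineage, with *Myh11* at 0. All 5 immune markers with 50 UMIs were higher too, and the 8 of that list summed to 421 against 112 CPM and 52064 in the immune lineage. Median depth was 8346 UMIs per cell. Scrublet, a doublet caller, marked 0 of these cells, but it marked only 6 of 2856 and 10 of 1792 cells in all, so doublets were in effect left in. The part of these markers in the levels was not tested.

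The sex of the cells moved with sub-cluster 12. Of 223 female control fibroblasts 26 lay in it (11.7%, 7.76 to 16.6%), of 647 male control fibroblasts 14 (2.16%, 1.19 to 3.60%), and of 817 male *SM22-SmoM2* fibroblasts 0 (upper limit 0.450%). Of 48 female *SM22-SmoM2* fibroblasts 0 lay in it as well (upper limit 7.40%). Of its *C3* UMIs 59 were in female and 7 in male cells, and of its *C4b* UMIs 177 and 44. Over all control fibroblasts, *C3* was at 23.1 CPM in female (60 UMIs) and 1.86 in male cells (17 UMIs). *C4b* was at 71.1 (185 UMIs) and 16.1 CPM (147 UMIs). Of the female UMIs, 59 of 60 for *C3* and 177 of 185 for *C4b* lay in the 26 female cells of sub-cluster 12. A higher level in the other female cells is thus not shown for these genes. *Serping1* was at 609 and 340 CPM. *C1s1* was at 202 and 166, *C1ra* at 161 and 111, and *Cfb* at 6.15 and 6.69 CPM. In the *SM22-SmoM2* library female cells were not the higher ones in *Serping1*, at 302 CPM in female and 437 in male cells (log2 ratio of male over female 0.53, 0.29 to 0.78), and *C4b* was at 4.32 (2 UMIs) and 5.58. Female and male cells come from different mice, so sex and mouse cannot be told apart.

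The ratios between the libraries were therefore read again in other sets of cells, chosen in part after the data were seen. Without sub-cluster 12, *C3* had 13 UMIs in control and 9 in *SM22-SmoM2* fibroblasts, a log2 ratio of −0.39 whose interval (−1.79 to 0.95) spans 0. *C4b* had 141 and 69 UMIs, a ratio of −0.89 (−1.32 to −0.46). *C1s1* (−0.63) and *C1ra* (−0.83) moved little, while *Serping1* came to 0.42 (0.36 to 0.47), from 315 and 420.0 CPM. Among male cells alone, *C3* was at −1.20 (−2.62 to 0.09), *C4b* at −1.53 (−2.004 to −1.07), *C1s1* at −0.61, *C1ra* at −0.80 and *Serping1* at 0.36 (0.30 to 0.43). Among female cells alone, of which the *SM22-SmoM2* library held only 48, *Serping1* turned to −1.01 (−1.27 to −0.76). *C1s1* was at −1.12 (−1.60 to −0.67), *C1ra* at −1.13 (−1.68 to −0.63) and *C4b* at −4.04 from 185 and 2 UMIs. Of those 185 control UMIs, 177 lay in the 26 female cells of sub-cluster 12, which held 0 of the 48 female *SM22-SmoM2* cells. The female *C4b* ratio is thus not a reading apart from sub-cluster 12. Without sub-clusters 3 and 9, whose leading genes held markers of another lineage, *Serping1* was at −0.46 (−0.53 to −0.40). Thus *C1s1* and *C1ra* were lower by a similar size without sub-cluster 12 and without female cells. For *C3* the interval spanned 0 in both sets. Sub-cluster 12 was picked by its *C3* UMIs, so a smaller *C3* difference without it follows from that choice.

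Sub-clusters 1 and 2 were the only ones with at least 50 cells of each library. Summed over both, *C4b* had a ratio of 0.98 (0.11 to 1.85) and *Cfb* of 2.21 (1.27 to 3.20). In the same sum *C1s1* and *C1ra* came closer to 0, at −0.12 (−0.28 to 0.04, which spans 0) and −0.38 (−0.57 to −0.20). The mix of sub-clusters 1 and 2 differed, with 280 and 225 control and 112 and 116 *SM22-SmoM2* cells. In sub-cluster 1 alone, *C1s1* was at 117 CPM in control and 77.5 in *SM22-SmoM2* cells, and *C1ra* at 117 and 67.3. In sub-cluster 2 alone, *C1s1* was at 240.1 and 237, and *C1ra* at 195 and 163. Sub-cluster 2, led by *Mmp3*, carried the *Cfb* difference, with 10 UMIs in 225 control cells (3.55 CPM) and 29 UMIs in 116 *SM22-SmoM2* cells (20.2). *C4b* was at 6.38 and 15.3 CPM in the same cells, and *Serping1* at 533 and 711.

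**Figure D2:**
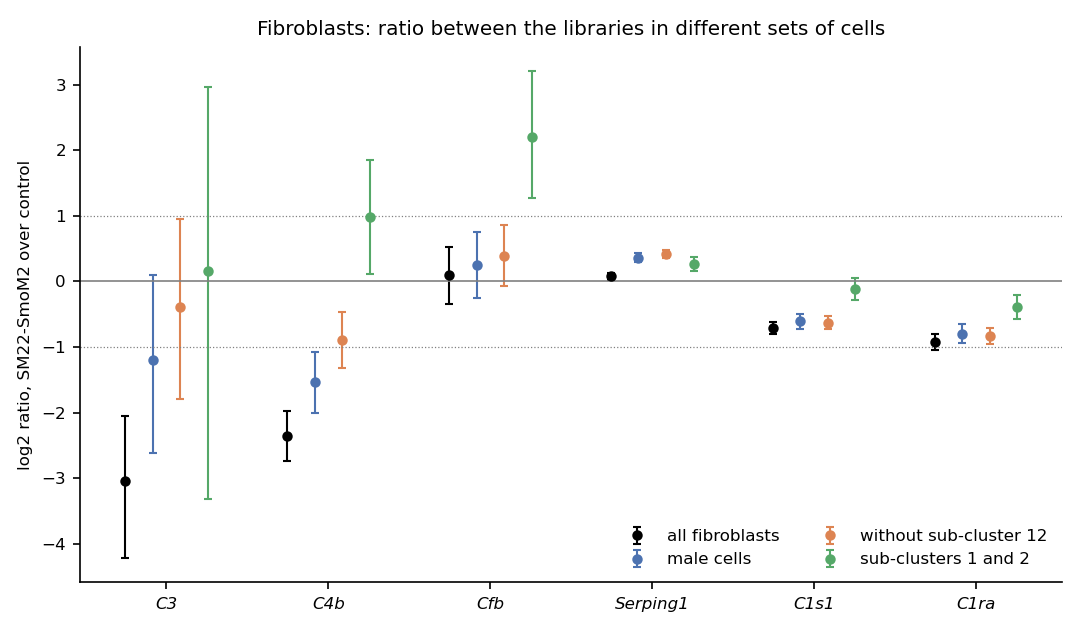
Log2 ratio of *SM22-SmoM2* over control fibroblasts for each gene in 4 sets of cells, with 95% counting intervals; the solid line is 0 and the dotted lines mark 2-fold. *C3* goes from −3.04 in all fibroblasts to −0.39 without sub-cluster 12, and *C4b* from −2.35 to −0.89, while *C1s1* and *C1ra* lie below 0 in all 4 sets, with an interval that spans 0 for *C1s1* in sub-clusters 1 and 2.

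The levels of the genes varied widely among fibroblast sub-clusters. *Serping1* ranged over sub-clusters of 20 or more cells from 69.9 CPM in sub-cluster 6 (184 *SM22-SmoM2* cells, led by *Egfl6* and *Sox11*) to the 3165 of sub-cluster 12. In sub-cluster 3 (led by *Sfrp5*, *Wfdc1* and *Cldn1*) it was at 1108 in 35 control and 1049 in 170 *SM22-SmoM2* cells. In sub-cluster 1 (led by *Crabp1* and *Mmp11*) it was at 171 in 280 control and 74.6 in 112 *SM22-SmoM2* cells.

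*C1s1* and *C1ra* were both lowest in sub-clusters made almost only of *SM22-SmoM2* cells. *C1s1* was at 28.8 CPM in sub-cluster 6 and at 33.8 in sub-cluster 14 (48 *SM22-SmoM2* cells, led by *Rspo1* and *Lef1*), and *C1ra* at 17.8 and at 12.3 (4 UMIs). Their highest levels after sub-cluster 12 were *C1s1* at 291 in sub-cluster 11 and 289 in control cells of sub-cluster 3, and *C1ra* at 195 in control cells of sub-cluster 2. In sub-cluster 2 the libraries were close in *C1s1*, at 240.1 and 237 CPM. In sub-cluster 3 they were not, at 289 in control and 118 in *SM22-SmoM2* cells.

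Among groups of 20 or more cells outside sub-cluster 12, *C4b* was highest in control cells of sub-clusters 3 (31.7 CPM, 11 UMIs) and 7 (27.9, 65 UMIs), the latter led by *Ccl21a*, *Wnt2* and *Pi16*, the last a marker of adventitial fibroblasts. *Cfb* was at 23.1 and 19.9 CPM in control and *SM22-SmoM2* cells of sub-cluster 3 and at 12.5 in sub-cluster 7. *C3* outside sub-cluster 12 had at most 4 UMIs in any sub-cluster and library.

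**Figure D3:**
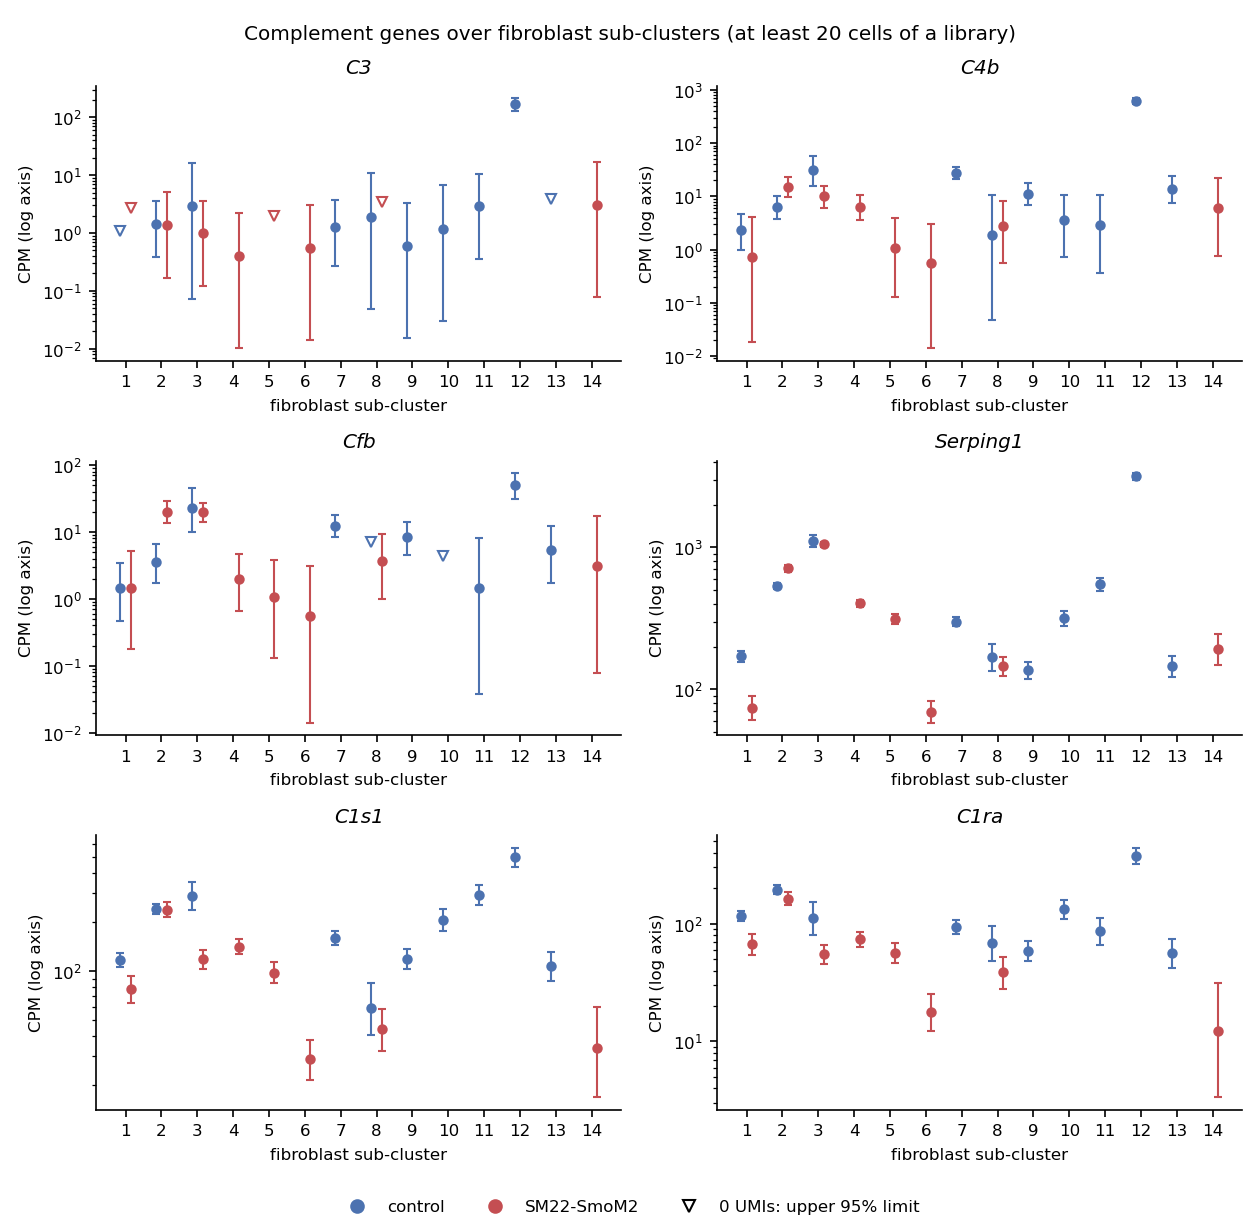
Level of each gene (CPM, log axis) in fibroblast sub-clusters with at least 20 cells of a library, with 95% counting intervals and open triangles for upper limits at 0 UMIs. Sub-cluster 12, found in the control library, is the highest for all 6 genes, and the *C1s1* and *C1ra* levels of sub-clusters 6 and 14, found in the *SM22-SmoM2* library, are the lowest.

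The next comparison asked whether cells with *Ptch1* transcripts, a readout of Hh signaling, differ from cells of the same library without them. *Ptch1* UMIs were found in 640 of 1100 *SM22-SmoM2* fibroblasts and in 108 of 1097 control fibroblasts. Median depths were 11298 UMIs per cell with and 10218 without *Ptch1* among *SM22-SmoM2* cells, and 12888 and 12459 among control cells.

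In *SM22-SmoM2* fibroblasts the C1 proteases were lower in cells with *Ptch1*. *C1s1* was at 89.4 CPM with and 136 without *Ptch1* (log2 ratio −0.61, −0.77 to −0.45), and *C1ra* at 47.6 and 91.9 (−0.95, −1.15 to −0.74). *Cfb* was at 5.63 and 9.48 (−0.75, −1.39 to −0.12) and *C4b* at 5.36 and 5.77 (−0.10). *Serping1* was higher with *Ptch1*, at 453 and 372 CPM (0.29, 0.20 to 0.37). The sign of this sum depended on sub-cluster 3, which held 39.9% of the library's fibroblast *Serping1* UMIs and had *Ptch1* in 146 of its 170 cells. Without it, in a comparison chosen after the data were seen, *Serping1* was at 264 and 349 CPM and the ratio turned to −0.41 (−0.51 to −0.30). In the same cells *Cfb* was at 1.89 and 8.15 CPM (−2.11, −3.23 to −1.11). Its 11 and 38 UMIs were too few to be counted. *C1ra* was at −1.05 (−1.28 to −0.83), *C1s1* at −0.79 (−0.97 to −0.62) and *C4b* at −0.50, with an interval that spans 0. Within sub-clusters with at least 20 cells on each side, the *Serping1* ratio was not below 0. It was 0.20 in sub-cluster 3, 0.01 in 4, 0.26 in 5, 0.18 in 6 and 0.22 in 8, each with an interval that spans 0. Sub-cluster 2, with 15 cells with and 101 without *Ptch1*, was at 621 and 726 CPM (−0.23, −0.51 to 0.05). Over all *SM22-SmoM2* fibroblasts *C3* had 2 UMIs with and 7 without *Ptch1*. Of the 5 genes with 50 UMIs 0 were 2-fold different, while 3.52% of all 10049 genes compared were at least 2-fold higher and 2.01% at least 2-fold lower, with a median log2 ratio of 0.13.

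Summed over all control fibroblasts, the proteases did not show this. *C1s1* was at 203 CPM with and 173 without *Ptch1* (0.23, 0.05 to 0.41), *C1ra* at 118 and 123 (−0.06, −0.30 to 0.17), and *Serping1* at 476 and 391 (0.28, 0.17 to 0.40). *C4b* was at 18.6 and 29.2 (−0.65, −1.27 to −0.08). All 84 *C3* UMIs lay in cells without *Ptch1* (6.58 CPM), and the cells with *Ptch1* held 0 (upper limit 2.55 CPM). With this 0 set to 3 UMIs, 1 of the 6 genes, *C3*, was at least 2-fold lower and 0 higher (background 3.72% lower and 2.62% higher). Only 3 of the 50 cells of sub-cluster 12 held *Ptch1*, but these held 17 of the 27 *C4b* UMIs of control fibroblasts with *Ptch1*. The difference between the libraries in these ratios was not tested.

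Cells without *Ptch1* were then compared between the libraries. Among them, *C3* had 84 control and 7 *SM22-SmoM2* UMIs (log2 ratio −2.19) and *C4b* 373 and 28 (−2.34), so that 2 of 6 genes were at least 2-fold lower and 0 higher (background 4.92% lower and 3.17% higher, median of all genes −0.15). Of these UMIs in control cells, sub-cluster 12 held most, and without it *C3* had 13 and 7 UMIs (log2 ratio 0.46, −1.11 to 1.89) and *C4b* 131 and 28 (−0.87, −1.52 to −0.28). *C1s1* was at 173 and 136 CPM (−0.34, −0.47 to −0.21) and *C1ra* at 123 and 91.9 (−0.42, −0.58 to −0.27). Among cells with *Ptch1*, 3 of 5 genes with 50 UMIs were at least 2-fold lower and 0 higher (background 4.41% lower and 6.73% higher). *C4b* was at 18.6 and 5.36 CPM (−1.80, −2.53 to −1.04), *C1s1* at 203 and 89.4 (−1.18, −1.38 to −0.98), and *C1ra* at 118 and 47.6 (−1.31, −1.58 to −1.04). Of the 27 control *C4b* UMIs in this comparison, 17 lay in 3 cells of sub-cluster 12. The *C4b* ratio and the count of lower genes without these cells were not computed.

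By *Ptch1* UMIs per cell, the proteases of *SM22-SmoM2* fibroblasts stepped down at the first UMI and then changed little. *C1s1* was at 136 CPM in 460 cells with 0, 82.0 in 204 cells with 1, 95.03 in 147 cells with 2 and 91.5 in 289 cells with 3 or more *Ptch1* UMIs. *C1ra* was at 91.9, 51.6, 51.5 and 43.8 in the same cells. *Serping1* was at 372, 333, 410.2 and 540.0 CPM, and without sub-cluster 3 at 349, 223, 265 and 293 CPM, highest in cells with 0 *Ptch1* UMIs. *Cfb*, at 9.48, 2.21, 2.01 and 9.02, and *C4b*, at 5.77, 4.85, 2.01 and 6.96, showed no steady order. Without sub-cluster 3, *Cfb* was at 8.15, 1.02, 1.64 and 2.64 CPM (38, 2, 2 and 7 UMIs), also highest in cells with 0 *Ptch1* UMIs.

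Sub-clusters differ in their share of cells with *Ptch1*, and the protease ratios varied between them. In *SM22-SmoM2* cells of sub-cluster 4 (106 cells with and 86 without *Ptch1*, led by *Areg*) *C1s1* had a ratio of −0.63 (−0.94 to −0.32) and *C1ra* of −0.81 (−1.25 to −0.38). In sub-cluster 3 (146 and 24 cells) the ratios were 0.34 and 0.23, and in sub-cluster 6 (123 and 61 cells) 0.58 and −0.38, all with intervals that span 0. The median over sub-clusters with at least 20 cells on each side was closer to 0 than the ratio over all cells, at −0.19 for *C1s1* and −0.34 for *C1ra*. In control cells of sub-cluster 2 (27 and 198 cells) *C1s1* was at −0.57 (−0.98 to −0.20) and *C1ra* at −0.59 (−1.04 to −0.17). In those of sub-cluster 1 (21 and 259 cells) they were at −0.04 and −0.14, with intervals that span 0. Only sub-clusters 1 and 2 of the control library had at least 20 cells on each side. Their median was −0.36 for *C1ra*, close to that of the *SM22-SmoM2* library. The *C1s1* ratios of both lay below the 0.23 summed over all control fibroblasts. In smaller control groups *C1s1* went both ways. It was at −0.71 (−1.32 to −0.11) in sub-cluster 3 (16 and 19 cells) and at 0.90 (0.32 to 1.44) in sub-cluster 9 (8 and 103 cells).

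**Figure D4:**
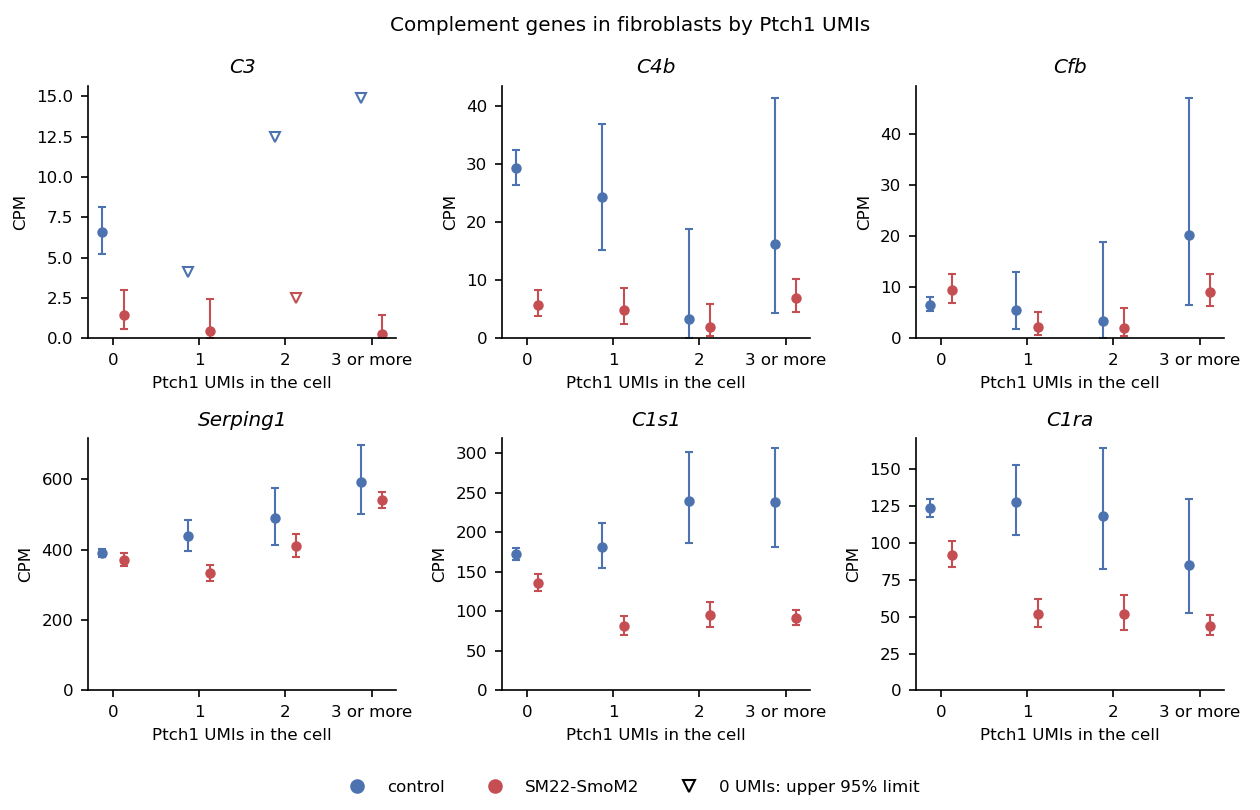
Level of each gene (CPM) in fibroblasts with 0, 1, 2 and 3 or more *Ptch1* UMIs, by library, with 95% counting intervals and open triangles for upper limits at 0 UMIs. In the *SM22-SmoM2* library *C1ra* goes from 91.9 without *Ptch1* to 43.8 at 3 or more UMIs and *Serping1* from 372 to 540.0, a rise not seen without sub-cluster 3; control groups with 2 and with 3 or more *Ptch1* UMIs hold only 22 and 15 cells.

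Around the 6 genes, 47 further genes of the complement pathway were listed, of which 46 were in the gene table and 20 had 50 UMIs in at least 1 lineage. In fibroblasts 14 had 50 UMIs, with 1 at least 2-fold higher in the *SM22-SmoM2* library, 1 at least 2-fold lower, and a median log2 ratio of −0.14. Over all genes compared there, 4.96% were at least 2-fold higher and 4.99% lower. The lower gene was *C1rl*, a relative of C1r (9.08 and 3.68 CPM in control and *SM22-SmoM2* fibroblasts, −1.30). The higher gene was *Cd59b* (2.04 and 4.56, from 29 and 57 UMIs, 1.16, 0.49 to 1.86), which codes for a blocker of the membrane attack complex.

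Among initiators, *C1qa*, *C1qb* and *C1qc*, the subunits of C1q, belonged to immune cells, where control cells had 2157, 2335 and 1493 CPM and *SM22-SmoM2* cells 3554, 4479 and 2925 CPM, against at most 4.40 in fibroblasts. *C2*, whose product pairs with C4, was at 99.97 and 94.7 CPM in fibroblasts and at 161 and 120 in muscle and pericyte cells. The collectin gene *Colec12* was at 113 and 122 in fibroblasts, and *Colec11* was at 160 and 76.7 in muscle and pericyte cells. *Cfp*, the gene for properdin, which stabilizes the alternative convertase, was an immune gene at 192 and 262 CPM.

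Among regulators, *Cd55*, which speeds the decay of convertases, was at 83.7 and 49.7 CPM in control and *SM22-SmoM2* fibroblasts (−0.75, −0.89 to −0.61) and *Cr1l*, which serves as a cofactor in C3b breakdown, at 71.3 and 48.6 (−0.55). *Cd59a* was highest in Schwann cells, at 734 and 514, and stood at 41.8 and 52.2 in fibroblasts. *Vtn* (239 and 337) was highest in muscle and pericyte cells, *Clu* (140 and 137) in endothelial cells and *Csmd1* (69.8 and 43.1) in Schwann cells. Among receptors, *C3ar1* (190 and 259), *C5ar1* (163 and 348), *Itgam* (39.4 and 35.9) and *Itgb2* (144 and 58.0) were highest in immune cells, and *Cd93* (705 and 584) in endothelial cells. In muscle and pericyte cells, 1 of 7 genes with 50 UMIs was at least 2-fold higher and 2 lower (background 0.907% higher and 3.27% lower). In endothelial cells 0 of 6 differed 2-fold (background 0.676% higher and 2.37% lower), and in Schwann cells 3 of 7 were lower. In Schwann cells these were *C1qa*, *C1qb* and *C1qc*, with 76, 79 and 62 UMIs in control and 3, 5 and 3 UMIs in *SM22-SmoM2* cells (background 1.85% lower). Immune markers moved with them, since 7 of 8 were lower in *SM22-SmoM2* Schwann cells and their sum went from 125 to 45.6 CPM. Their part in the C1q levels was not tested.

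**Figure D5:**
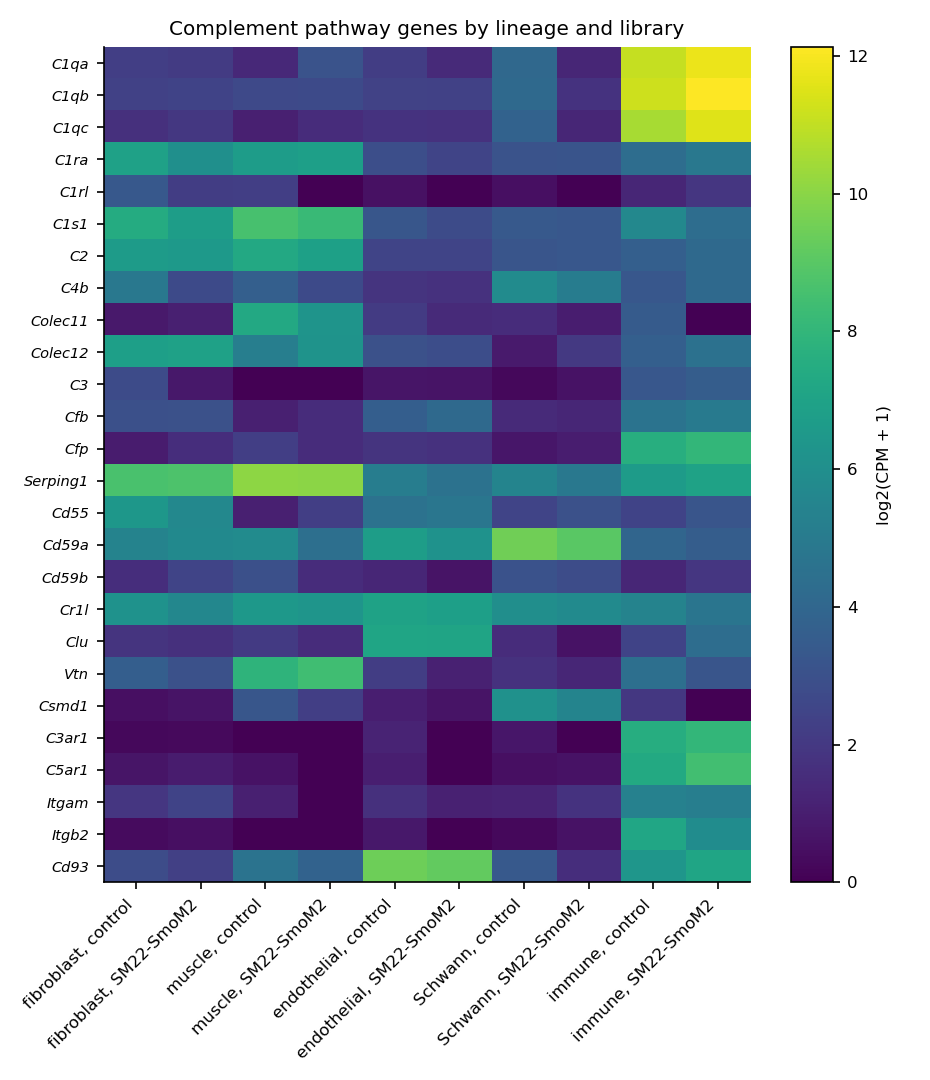
Levels of complement genes with at least 50 UMIs in a lineage, as log2(CPM + 1), in 5 lineages of each library; brighter is higher. C1q genes and receptors *C3ar1* and *C5ar1* are brightest in immune cells, while *Serping1*, *C1s1*, *C1ra* and *C2* are bright in fibroblasts and in muscle and pericyte cells of both libraries.

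Over 18 units, each a sub-cluster and library with at least 20 cells, the members were linked to different degrees. Pearson r of log2(CPM + 10) went from 0.50 for *C3* and *C1s1* to 0.91 for *C3* and *C4b*. Sub-cluster 12 was the highest unit for all 6 genes and enters each r. *C3* and *C4b* had a Spearman rho of only 0.45, below the 0.60 of *C3* and *Serping1*. *C1s1* and *C1ra* had r = 0.90 and rho = 0.83, *C4b* and *Cfb* r = 0.86 and rho = 0.87, and *Serping1* and *C1s1* r = 0.81 and rho = 0.80. The units share 2 libraries and the same clustering, and no p is given. Across 1036 single control fibroblasts thinned to 5000 UMIs, r for *C3* and *C4b* was 0.49, and 0.13 in the 995 cells outside sub-cluster 12. The genes most like each member over the same units, of 8505 compared, were *Pik3r1* for *C3* (r = 0.87), *Dapk1* for *C4b* (0.83), *Scn7a* for *Cfb* (0.87), *Mgp* for *Serping1* (0.94), *Acp5* for *C1s1* (0.94) and *Ctsk* for *C1ra* (0.94). *C3* had at most 4 UMIs in every unit but sub-cluster 12, so its likeness rests on that unit. The second and the third in likeness were *Il4ra* and *Gstt1* for *C3*, *Cd302* and *Blvrb* for *C4b*, *Plac8* and *Pi16* for *Cfb*, *Cygb* and *Plac8* for *Serping1*, *Ecm2* and *Abi3bp* for *C1s1*, and *Ctsz* and *Tapbp* for *C1ra*.

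The other lists were read in fibroblasts between the libraries as well. Of 27 interferon-induced genes 0 were 2-fold higher and 1 lower (median log2 ratio 0.14), and of 17 acute-phase and NF-kB genes 2 were higher and 3 lower (−0.07), beside 4.96% higher and 4.99% lower over all genes. Of 12 dissociation-stress genes 2 were higher and 0 lower (0.51).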

How the data were processed

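Single-cell RNA sequencing of sorted Tomato+ wound cells was read from 1 control and 1 SM22-SmoM2 library (10x Chromium v2). The authors deposited raw UMI counts, 1 whole number for each gene in each cell with no normalization, and the submitters' processing notes name bcl2fastq, Cell Ranger and mm10, with versions not given in the sources used here. Only 3′ ends were counted, so levels of different genes were not compared. One gene of the complement list is not reported here and was left out of its counts. The members and lists were chosen with earlier results of these data known.

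Barcodes were kept from 200 genes on and up to a mitochondrial share of 10%. Cells were scaled to a total of 10000, put on a log scale and clustered by K-means (scikit-learn 1.9.0, 50 starts) in 20 principal components of the 2000 most variable genes. K was 20 over all cells and 15 within fibroblasts, and 74 complement, Hh, dermal papilla and Wnt genes took no part. For a lineage name, 3 of its markers had to reach 10 CPM and lie 1.5 times above the median of clusters, and clusters whose 10 leading genes held more markers of another lineage were set aside as mixed. These thresholds were set after the clusters were seen.

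UMIs were summed per lineage and library and divided by all UMIs of those cells to give CPM, per 1000000. With 1 library per condition no test was run. Poisson, conditional and Clopper-Pearson intervals (scipy 1.17.1) are at 95%. A gene entered counts of 2-fold differences with at least 50 UMIs over both groups, and a count of 0 was set to 3 UMIs. Thinning drew 1500 or 5000 UMIs per cell without replacement. Doublets were looked for with Scrublet (scanpy 1.11.5, expected rate 5%), and none were removed. The ratio code was tested on simulated data. Named genes are the members, other complement genes with 50 UMIs in a lineage, Ptch1 and the 3 genes most like each member among those with 200 fibroblast UMIs. Genes that lead a sub-cluster, and Saa3, were named after their values were seen. Positions come from GENCODE on GRCm38 and promoter windows from RefSeq on GRCm38.p6.

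Alternatives covered the filters, clustering, thinning, scaling, mean over cells, sex of cells, the Ptch1 cut and shared sub-clusters. Those without sub-cluster 12 or 3, with a stricter rule for mixed sub-clusters, and with the mixed cluster counted as endothelial were chosen after seeing the data.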

Additional observations from a re-analysis of the deposited data

How the results depend on the processing

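Depth and the single library per condition limit these values, since C3 rests on 84 and 9 fibroblast UMIs and Cfb on 95 and 89. In fibroblasts between the libraries, C1s1 and C1ra kept their direction in 20 of 20 alternatives (log2 ratios −1.12 to −0.12 and −1.13 to −0.38). The C3 ratio of −3.04 came to −1.20 in male cells, 0.16 in sub-clusters 1 and 2 (4 and 2 UMIs), and −0.39 without sub-cluster 12. In female cells it came to −1.83, with the 0 SM22-SmoM2 UMIs set to 3. The C4b ratio of −2.35 came to −3.10 with cells thinned to 1500 UMIs, −3.05 as a mean over cells, −1.53 in male cells, −4.04 in female cells, 0.98 in sub-clusters 1 and 2, and −0.89 without sub-cluster 12. Cfb and Serping1, near 0 in the sum, ranged from −1.51, in female cells, to 2.21 and from −1.01, in female cells, to 0.42. The 2 members at least 2-fold lower became 1 after thinning, 1 in male cells, 5 in female cells, 0 in sub-clusters 1 and 2 and 0 without sub-cluster 12. These counts leave out members with too few UMIs. In male cells C3 had 17 control and 8 SM22-SmoM2 UMIs and was not counted, although its ratio was −1.20.

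In cells without Ptch1, the C3 ratio of −2.19 turned to 0.46 without sub-cluster 12. Between cells with and without Ptch1, the Serping1 ratio of 0.29 in the SM22-SmoM2 library ranged from −0.41, without sub-cluster 3, to 0.45, and in the control library, where it was 0.28, from −0.59 in female to 0.72 in male cells. The control C1s1 ratio of 0.23 ranged from −0.68 after thinning to 0.59. The 0 members lower in the SM22-SmoM2 library became 1 when the median gene was set to 0, in male cells, between 8000 and 16000 UMIs per cell, and under the stricter rule for mixed sub-clusters. In the control library the 1 member lower became 0 after thinning, in male cells, with Ptch1 called after thinning to 5000 UMIs, within sub-clusters and without sub-cluster 12, and 2 in female cells, and the 0 members higher became 1 with Ptch1 called after that thinning. The member lower was C3, which had 17 UMIs in male control fibroblasts and 13 in those outside sub-cluster 12. That is too few to be counted, so in these 2 sets the count of 0 does not show that its difference was lost.

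The median share of the members' UMIs in fibroblasts was 67.1% in the control library. It came to 70.4% at no more than 5% mitochondrial UMIs, 71.2% from 5000 UMIs per cell on, 62.7% with Leiden clustering, 65.4% with K = 30 over all cells and 20 within fibroblasts, 64.5% with lineages from each cell's own markers, 56.7% after thinning, 58.0% as a mean over cells and 71.7% in male cells. In the SM22-SmoM2 library it was 74.1%, and came to 58.7% with own markers, 66.2% as a mean over cells and 42.2% in female cells. The cause of these shifts was not tested. No paired analysis was possible because each condition is 1 library.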
